A study of Mus musculus with 4 samples.

Results

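The LIM homeobox genes described here are *Isl1*, *Isl2*, *Lhx1*, *Lhx2*, *Lhx3*, *Lhx4*, *Lhx5*, *Lhx9*, *Lmx1a* and *Lmx1b*. They were chosen by name, and 19 of the 56605 non-control probes on the array carried one of these 10 gene names, out of 37325 gene names in all. LIM homeodomain proteins are transcription factors that join a DNA-binding homeodomain to LIM domains, zinc-binding modules that recruit LIM domain-binding (Ldb) cofactors. Combinations of these factors specify classes of motor neurons and interneurons in the spinal cord, and single members are needed for the forebrain, eye, pituitary, limb, heart, gonad and kidney. LIM-only (Lmo) proteins compete for the same cofactors, and the ubiquitin ligase Rlim marks them for degradation.

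RNA of whole C57BL/6 embryos was measured on 4 one-colour Agilent arrays, 1 each for WT embryos at embryonic day (E) 8.5, embryos labelled *Dyrk2*-/- at E8.5, WT embryos at E10.5 and embryos labelled *Dyrk2*-/- at E10.5. All 4 arrays lay on 1 slide. The sample titles of the mutants read DYRK2-KO, which is written here as labelled *Dyrk2*-/-, the genotype the authors give for these embryos. Dyrk2 is a protein kinase, and the comparison asks how its loss alters gene expression in early organogenesis. The mutants came from Cas9 nickase editing, which gave several small-deletion alleles, and the sources used here do not state which allele or how many embryos lay behind each RNA. With 1 array a group, no difference between genotypes at a stage has a replicate check, and none was tested. Levels below are log2 intensities relative to the 75th percentile of the same array, so a level can be followed across arrays for 1 probe but not compared between probes.

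The labels were first set against the targeted gene and the sex chromosomes. The brighter *Dyrk2* probe gave 0.06 on the WT array and 0.76 on the array labelled *Dyrk2*-/- at E8.5, then −0.31 and 0.34 at E10.5. The second *Dyrk2* probe gave −0.23 and −0.20 at E8.5, then −0.28 and −0.0048 at E10.5. With this scaling, *Dyrk2* signal was thus not lower on either array labelled *Dyrk2*-/-. Scaling on spike-in RNAs, or none, moved the E8.5 median ratio of all genes from −0.02 to −0.57 and −0.28. The direction of the second *Dyrk2* probe at E8.5 therefore rests on the scaling. Whether either probe lies within a deleted stretch is not given in the sources used here, and a small deletion need not lower the transcript, so these values do not check the labels and every genotype direction below rests on them. *Xist*, the RNA that silences an X chromosome in female cells, stood out from background on 1 array alone, the labelled *Dyrk2*-/- array at E10.5, at −0.37. On that same array none of the Y-linked genes *Uty*, *Kdm5d*, *Eif2s3y* and *Ddx3y* was well above background, while all 4 were on each other array. Genotype and sex markers therefore cannot be told apart at E10.5. Nor can stage and sex markers between the labelled *Dyrk2*-/- arrays, whereas both WT arrays had Y-linked signal.

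Markers of red blood cells also differed. All 10 erythroid markers were at least 1.5-fold higher on the array labelled *Dyrk2*-/- than on the WT array at E8.5, and 7 of 10 at E10.5. *Hbb-y*, an embryonic beta-like globin, gave 0.15 on the WT array and 6.15 on the labelled *Dyrk2*-/- array at E8.5. The summed linear level of the 10 markers, in units of each array's 75th percentile, was 15.5 and 326 at E8.5, then 1102 and 1303 at E10.5. *Hbb-bh1* had the brightest probe on average, and *Klf1* was among those not well above background on the WT array at E8.5. The part of blood content in the results below was not tested. In RNA of whole embryos, fewer cells of a type and less RNA per cell cannot be told apart.

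Between E8.5 and E10.5 most LIM homeobox genes were higher at the later stage in both genotypes. For each gene the probe with the highest mean level was used. Of the 10 genes, 8 had a probe well above background, by the scanner software's flag, on all 4 arrays. In WT, 8 of the 10 were at least 1.5-fold higher at E10.5, as were 18.8% of all genes compared, and none was lower by that much, against 17.5% of all genes. With normexp (offset 50) 7 of the 10 were higher, *Lmx1a* falling short, beside 10.4% of all genes. Between the arrays labelled *Dyrk2*-/-, the same fold was passed upward by 8 and downward by 2, against 17.5% and 13.9% of all genes, and downward by none with spike-in scaling and by *Lhx1* alone under the other 4 alternative scalings. *Lhx4* and *Lhx9*, among the 8 higher genes, were well above background only at E10.5, so they entered this comparison only through the stage at which they were high. The median log2 difference between stages over the 10 genes was 1.34 in WT and 1.33 between the labelled *Dyrk2*-/- arrays, against −0.08 and −0.05 over all genes. Over the 8 genes that remain when signal on both arrays is required, which drops *Lhx4* and *Lhx9*, these medians were 0.85 and 0.96.

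A limma fit over all 4 arrays, with stage and genotype as terms and 1 residual degree of freedom, gave the only test. Its residual is how far the genotype difference departs from being the same at both stages, moderated by the residuals of the other probes. Its p-values therefore measure no spread between repeat arrays or embryos of a group. It called 13 member probes higher and 4 lower at E10.5 at an adjusted p under 0.05, of 18 tested, beside 15.7% and 19.6% of the 32289 probes tested. When the arrays were scaled on spike-in RNAs, 8 of the 18 were called, beside 2633 of the 32289. Without the intensity trend, 12 of the 18 were called, beside 6437 of the 32289. The 5 probes of *Lhx4* and *Lhx9*, all among the 8 called with spike-in scaling, passed the filter only through E10.5.

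**Figure D1:**
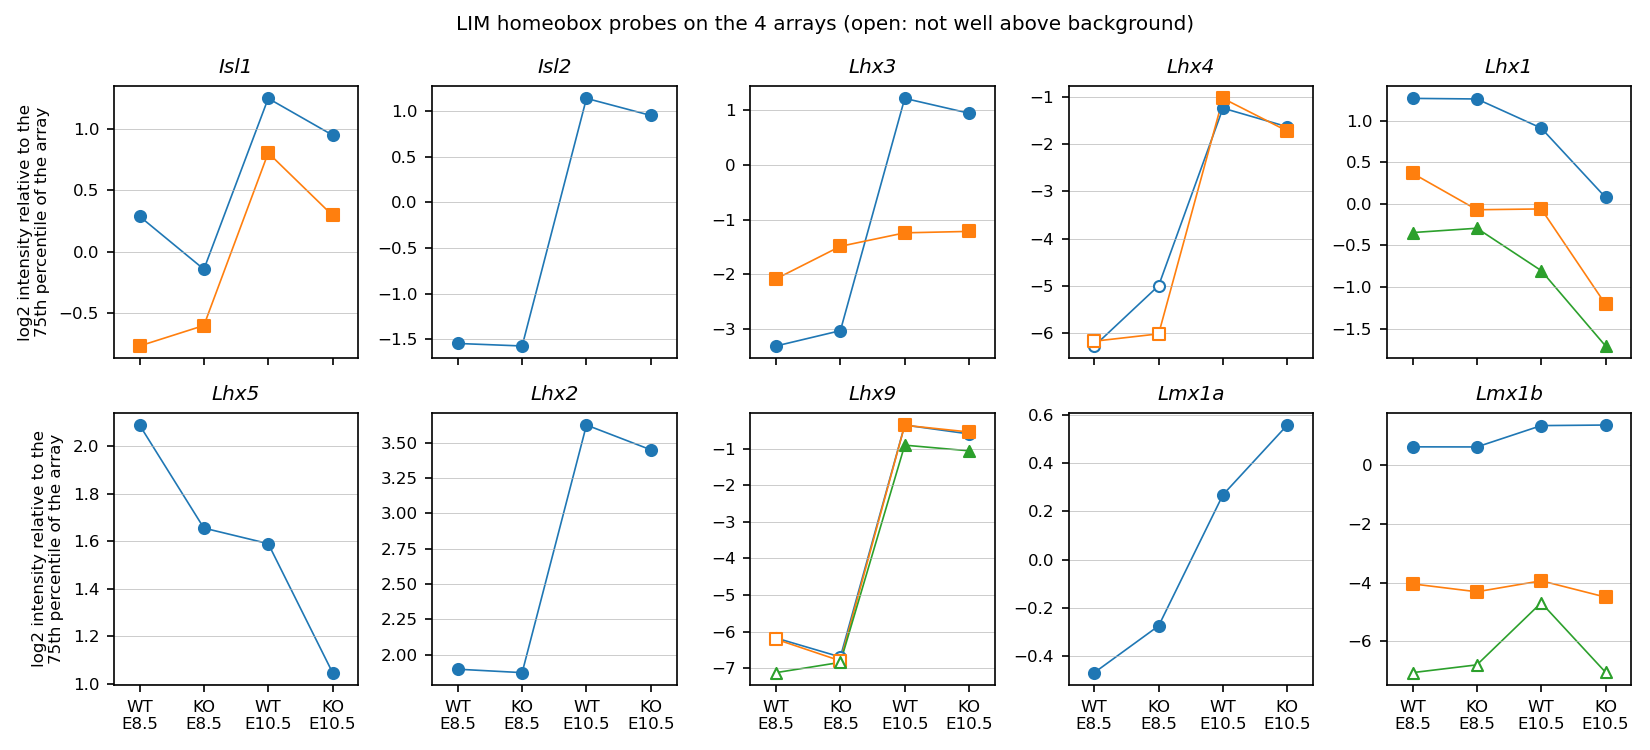
Level of each LIM homeobox probe on the 4 arrays, as log2 intensity relative to the 75th percentile of the array, 1 panel a gene with its own axis. Lines join the values of 1 probe, KO stands for the arrays labelled *Dyrk2*-/-, and open symbols mark values not well above background, as for *Lhx4* and *Lhx9* at E8.5.

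Between genotypes the differences were smaller. At E8.5, none of the 8 LIM homeobox genes well above background differed by 1.5-fold, and of all 20848 genes compared 5.14% were higher and 6.52% lower than in WT. The median log2 ratio of labelled *Dyrk2*-/- over WT was −0.02 for these genes and −0.02 for all genes. Under spike-in scaling, and also without scaling, *Isl1* and *Lhx5* were lower by more than 1.5-fold at E8.5, and the medians became −0.56 and −0.27 for the members beside −0.57 and −0.28 for all genes. At E10.5, *Lhx1* was lower by more than 1.5-fold and no member was higher by that much, against 3.5% higher and 4.22% lower among 21351 genes. A ratio below 0 was found for 8 of the 10 members at E10.5, with *Lmx1a* and *Lmx1b* above it, and the median was −0.26 against −0.0007 for all genes. With spike-in scaling the members' median became −0.10 and that of all genes 0.16, and without scaling *Lmx1b* also fell below 0. With the mean over a gene's probes, which takes in dim probes, *Lmx1b* was at −0.97 and so past 1.5-fold, as was *Lhx1*, and the stage difference of *Lmx1b* between the labelled *Dyrk2*-/- arrays was 0.10, no longer past it. In the limma fit, no member probe was called for genotype over both stages, and 6 of 32289 probes were called, or 0.0186%. The unadjusted p for genotype was under 0.05 for 3 of the 18 member probes and for 1592 of the 32289. Without the intensity trend, limma called no probe at all for genotype, and 2 member probes had an unadjusted p under 0.05, beside 1635 of the 32289. Without scaling it called 4 member probes for genotype, the 3 of *Lhx1* and that of *Lhx5*, beside 729 of the 32289. Without a filter it called 2, 1 of each gene, beside 564 of 56604 probes.

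**Figure D2:**
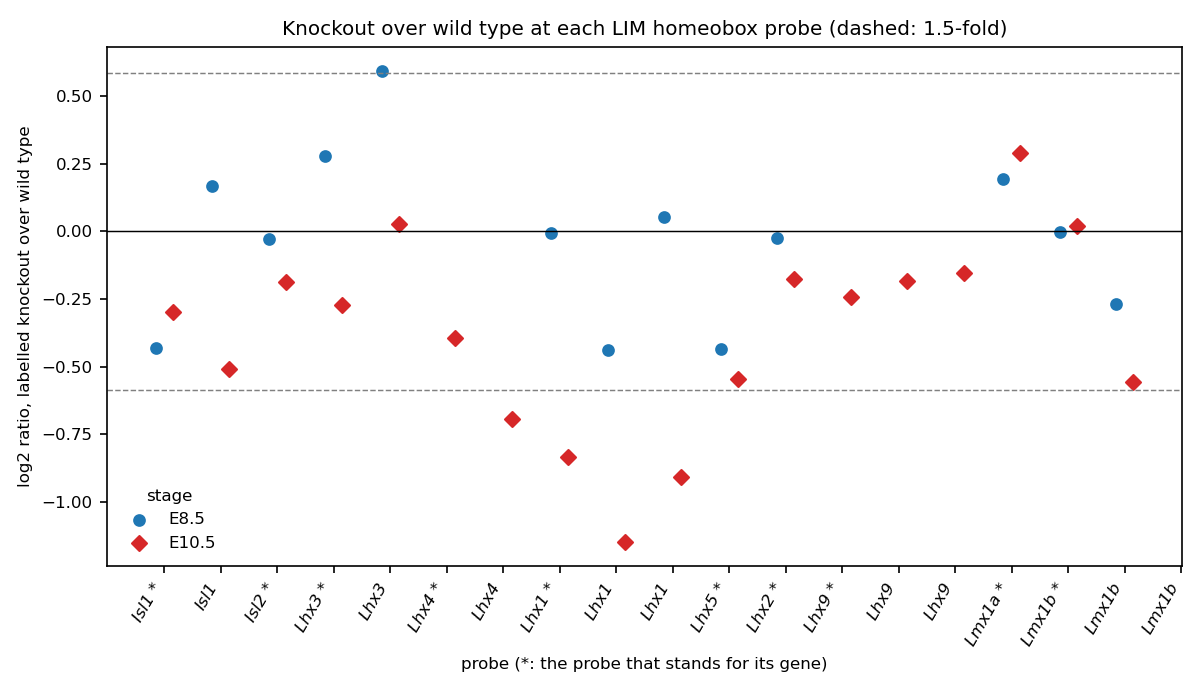
Log2 ratio of the array labelled *Dyrk2*-/- over the WT array at each LIM homeobox probe, where the probe was well above background on both arrays, at E8.5 (circles) and E10.5 (diamonds). All 3 *Lhx1* probes lie below the lower dashed line, which marks 1.5-fold, at E10.5, and 1 of them lies lower still than −1.

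*Isl1*, *Isl2*, *Lhx3* and *Lhx4* act in the motor neuron lineage, where Isl1 and Lhx3 bind Ldb1 in 1 complex. *Isl1*, which also marks second heart field progenitors and hindlimb mesenchyme, gave 0.29 on the WT array and −0.14 on the labelled *Dyrk2*-/- array at E8.5, then 1.25 and 0.95 at E10.5. Both E10.5 arrays lay above both E8.5 arrays, by 1.94-fold in WT and 2.13-fold between the labelled *Dyrk2*-/- arrays (limma estimate 1.02, adjusted p for stage 0.000453). With spike-in scaling the estimate was larger, 1.31, and was not called (adjusted p 0.221). The second *Isl1* probe, nearer the transcript's start, gave −0.77 and −0.60 at E8.5, then 0.80 and 0.29 at E10.5. The 2 *Isl1* probes therefore disagreed on the genotype at E8.5, with log2 ratios of −0.43 and 0.17, and were both lower on the labelled *Dyrk2*-/- array at E10.5, with −0.30 and −0.51.

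*Isl2*, which follows Isl1 in newly born motor neurons, gave −1.55 and −1.57 on the WT and labelled *Dyrk2*-/- arrays at E8.5, then 1.14 and 0.95 at E10.5. It was 6.43-fold higher at E10.5 in WT and 5.76-fold higher between the labelled *Dyrk2*-/- arrays, and its genotype ratios were −0.03 at E8.5 and −0.19 at E10.5.

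*Lhx3*, needed for motor neurons that project ventrally and for the pituitary, gave −3.31 and −3.03 at E8.5, then 1.21 and 0.94 at E10.5, at its main probe. The stages were far apart in both genotypes, 22.9-fold in WT and 15.6-fold between the labelled *Dyrk2*-/- arrays. With normexp (offset 50) the log2 differences of *Lhx3* at this probe were 3.27 and 2.74, against 4.52 and 3.97 with the main scaling. Its other probe gave −2.08 and −1.49 at E8.5, then −1.24 and −1.22 at E10.5, so the 2 *Lhx3* probes agreed on the direction of the stage difference but not on its size. At that second probe *Lhx3* was 1.51-fold higher on the labelled *Dyrk2*-/- array at E8.5, against 1.21-fold at the main probe.

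*Lhx4*, the closest relative of *Lhx3*, was not well above background at either of its 2 probes at E8.5. At E10.5 these gave −1.24 and −1.03 in WT, and −1.63 and −1.73 on the labelled *Dyrk2*-/- array. Where a probe was dim on 1 side, its fold was taken against whichever was larger on that array, the dim value itself or the faintest value that was well above background. By that rule, with the main scaling, *Lhx4* was at least 12.0-fold and at least 13.8-fold higher at E10.5 in WT at the 2 probes. Between the labelled *Dyrk2*-/- arrays it was at least 7.42-fold and at least 6.97-fold higher. With normexp (offset 50) the log2 stage differences of the main *Lhx4* probe were 1.72 and 1.12, below these bounds of 3.58 and 2.89. The E10.5 genotype difference was 1.31-fold at the main probe and 1.62-fold at the other, both lower on the labelled *Dyrk2*-/- array.

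*Lhx1* and *Lhx5*, closely related genes of several spinal interneuron classes and of the brain, ran the other way with stage. *Lhx1*, also required in the head organizer and in the intermediate mesoderm that forms the kidney, gave 1.27 and 1.26 at E8.5, then 0.91 and 0.08 at E10.5, at its main probe. Its second probe gave 0.37 and −0.07 at E8.5, then −0.06 and −1.21 at E10.5. The last of the 3 gave −0.34 and −0.29 at E8.5, then −0.80 and −1.71 at E10.5. At every one of the 3 probes the lowest value was that of the E10.5 array labelled *Dyrk2*-/-.

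The E10.5 genotype differences of *Lhx1* were 1.78-fold, 2.22-fold and 1.88-fold lower at these probes, and at E8.5 the log2 ratios were −0.0071, −0.44 and 0.05. Under all 6 scalings the main probe kept an E10.5 ratio between −0.97 and −0.67. Its E8.5 ratio became −0.55 with spike-in scaling and −0.26 without scaling, so the distance between the stages rests on the scaling. With stage, *Lhx1* differed less in WT, 1.28-fold to 1.37-fold lower at E10.5, than between the labelled *Dyrk2*-/- arrays, 2.20-fold to 2.67-fold lower. With spike-in scaling the main probe gave log2 differences of −0.43 and −0.55, close to each other and both short of 1.5-fold. Whether the difference between genotypes itself differed by stage was not tested, since in the limma fit that departure is the residual. The limma fit called all 3 *Lhx1* probes lower at E10.5, with adjusted p of 0.0123, 0.00995 and 0.00971, and none of them with spike-in scaling or without the intensity trend. Over both stages the second *Lhx1* probe had the largest genotype estimate of any member, −0.79, at an adjusted p of 0.384. It was called without a filter, and all 3 *Lhx1* probes were called without scaling, at adjusted p of 0.0338 or less.

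*Lhx5*, with 1 probe, gave 2.09 and 1.66 on the WT and labelled *Dyrk2*-/- arrays at E8.5, then 1.59 and 1.05 at E10.5. The WT array was the higher at both stages, by 1.35-fold and then 1.46-fold, both short of 1.5-fold. The E8.5 log2 ratio became −0.98 with spike-in scaling and −0.69 without scaling, and the E10.5 ratio −0.38 and −0.68, so that only the spike-in value at E10.5 stayed short of it. *Lhx5* was 1.41-fold lower at E10.5 in WT and 1.53-fold lower between the labelled *Dyrk2*-/- arrays (limma adjusted p for stage 0.00866). That call was lost with spike-in scaling, without scaling and without the intensity trend. With spike-in scaling the log2 difference between the labelled *Dyrk2*-/- arrays was 0.03, no longer below 0.

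*Lhx2* and *Lhx9*, related genes of the forebrain and the limb mesenchyme, were both higher at E10.5. *Lhx2*, which is required for the eye and cerebral cortex, gave 1.90 and 1.87 at E8.5, then 3.62 and 3.45 at E10.5. The genotypes lay close together at both stages, and the stages were 3.31-fold apart in WT and 2.98-fold apart between the labelled *Dyrk2*-/- arrays.

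*Lhx9*, also required for the gonad, was not well above background at any of its 3 probes at E8.5. At E10.5 they gave −0.36, −0.37 and −0.91 in WT, and −0.60, −0.55 and −1.06 on the labelled *Dyrk2*-/- array. With the main scaling *Lhx9* was at least 22.0-fold, at least 21.9-fold and at least 15.04-fold higher at E10.5 in WT. Between the labelled *Dyrk2*-/- arrays it was at least 15.2-fold, at least 15.7-fold and at least 11.03-fold higher. With normexp (offset 50) the log2 stage differences of the main *Lhx9* probe were 2.40 and 2.17, below these bounds of 4.46 and 3.92. All 3 *Lhx9* probes were lower on the labelled *Dyrk2*-/- array at E10.5, by 1.11-fold to 1.18-fold.

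*Lmx1a* and *Lmx1b* act together in the roof plate and in midbrain dopaminergic progenitors, and *Lmx1b* also gives the limb its dorsal identity. *Lmx1a* gave −0.47 and −0.27 on the WT and labelled *Dyrk2*-/- arrays at E8.5, then 0.27 and 0.56 at E10.5. The labelled *Dyrk2*-/- array was the higher at both stages, by 1.14-fold and then 1.22-fold, though with spike-in scaling or none the E8.5 ratio was below 0. *Lmx1a* was 1.67-fold higher at E10.5 in WT and 1.78-fold higher between the labelled *Dyrk2*-/- arrays. With normexp (offset 50) its WT log2 difference was 0.576, just short of 1.5-fold.

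*Lmx1b* gave 0.62 and 0.61 at E8.5, then 1.34 and 1.36 at E10.5, at its main probe, so that the 2 genotypes were nearly equal at each stage. It was 1.65-fold higher at E10.5 in WT and 1.68-fold higher between the labelled *Dyrk2*-/- arrays. Another *Lmx1b* probe gave fainter values, each still well above background, of −4.05 and −4.31 at E8.5, then −3.94 and −4.50 at E10.5. It was the 1 member probe tested that limma did not call for stage (adjusted p 0.945). On none of the arrays was the remaining *Lmx1b* probe well above background.

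The probes are 60 bases long, and no member probe shared a run of more than 10 bases with a probe of another member. The hexamer AATAAA, the usual polyadenylation signal, was found on the probe strand in 5 of the 19 member probes, 26.3%, and in 9.77% of all 56605 probes. The sequences of 4 member probes that lie in coding sequence are shown because they bear on how far probes of 1 gene can be read alike. The *Lhx1* probe is the main probe of the gene with the largest E10.5 genotype difference. These places in the genes were read from the printed bases and the known reading frames, since no annotation of coding sequence was used here. By that reading the *Lhx9* probe lies in the part that encodes the homeodomain, and the 2 *Lmx1b* probes, in the part that encodes the LIM domains, are those that were faint or not well above background. Capitals mark the longest run shared with a probe of another member.
Lhx1, mm9 chr11:84333052-84333111, minus strand: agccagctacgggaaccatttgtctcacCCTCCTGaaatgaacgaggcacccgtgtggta
Lhx9, mm9 chr1:140729280-140729339, minus strand: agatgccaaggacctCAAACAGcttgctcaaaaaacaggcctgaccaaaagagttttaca
Lmx1b, mm9 chr2:33495011-33495070, minus strand: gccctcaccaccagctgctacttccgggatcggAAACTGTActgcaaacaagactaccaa
Lmx1b, mm9 chr2:33424708-33424767, minus strand: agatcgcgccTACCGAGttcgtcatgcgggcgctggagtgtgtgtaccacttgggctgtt

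*Lhx6* and *Lhx8*, a pair of LIM homeobox genes of the ventral forebrain and the jaw, were read beside the 10. *Lhx8* gave −3.45 and −3.68 at E8.5, then 0.58 and 0.63 at E10.5, at its main probe, which makes it 16.3-fold higher at E10.5 in WT. Its other probe gave −2.20 and −2.30 at E8.5, then −2.24 and −1.74 at E10.5, so the 2 *Lhx8* probes disagreed on stage in WT, while between the labelled *Dyrk2*-/- arrays both were higher at E10.5, by 19.8-fold and 1.47-fold. *Lhx6* gave 1.29 in WT at E8.5 and 1.64 on the labelled *Dyrk2*-/- array at E10.5, its lowest and highest values, at a probe with a CA repeat of 28 bases. On no array did the other *Lhx6* probe rise well above background. The level of *Lhx6* was therefore not read from these arrays.

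The 10 cofactor and LIM-only genes were well above background on every array, and none differed by 1.5-fold between genotypes at either stage. *Ldb1*, the cofactor that bridges LIM homeodomain proteins, gave 2.76 and 2.82 at E8.5, then 2.63 and 2.64 at E10.5. *Ldb2* gave 0.26 and 0.13 at E8.5, then 0.70 and 0.63 at E10.5. *Rlim* gave 3.86 and 3.72 at E8.5, then 3.48 and 3.51 at E10.5. The 2 cofactors and *Rlim* thus moved by less than 1.5-fold in every comparison.

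*Lmo1*, *Lmo3* and *Ssbp4*, the last a single-stranded DNA-binding protein of the Ldb complexes, were at least 1.5-fold higher at E10.5 in both genotypes. *Ssbp4* gave −0.01 and 0.44 at E8.5, then 2.005 and 1.84 at E10.5. *Lmo1* gave 0.90 and 0.65 at E8.5, then 2.14 and 1.69 at E10.5, and its E10.5 genotype log2 ratio of −0.45 was the largest among these 10 genes. *Lmo3* gave −2.64 and −2.71 at E8.5, then −1.78 and −1.88 at E10.5. *Lmo2*, which acts in blood progenitors, gave 1.94 and 2.13 at E8.5, then 1.498 and 1.39 at E10.5, and was lower by 1.66-fold at E10.5 between the labelled *Dyrk2*-/- arrays. *Lmo4*, *Ssbp2* and *Ssbp3* differed by less than 1.5-fold in all 4 comparisons. The median of the 10 genes was −0.09 for genotype at E8.5, −0.10 at E10.5, and 0.35 and 0.36 for stage in the 2 genotypes.

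Of 10 further motor neuron genes, 6 were at least 1.5-fold higher at E10.5 in WT and 1, *Mnx1*, was lower. *Olig2*, a factor of motor neuron progenitors, gave −4.01 and −3.20 at E8.5, then −1.54 and −1.54 at E10.5. *Neurog2*, a proneural factor, gave −2.76 and −1.90 at E8.5, then 0.46 and 0.19 at E10.5. Both were higher on the labelled *Dyrk2*-/- array at E8.5, by 1.75-fold and 1.81-fold, and not at E10.5. The median E8.5 genotype ratio of the 10 motor neuron genes was 0.23.

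*Slc18a3*, the vesicular acetylcholine transporter, gave −3.42 and −3.10 at E8.5, then −0.30 and −0.94 at E10.5, the last pair being 1.56-fold apart. *Chat*, dim on the labelled *Dyrk2*-/- array at E8.5, gave −4.42 in WT, then −3.84 and −4.41 at E10.5. Both genes had their higher E10.5 values in WT. *Mnx1*, a marker of postmitotic motor neurons, was well above background at E8.5 alone, at −4.02 and −3.94. *Slc5a7* gave −4.62 and −4.45 at E8.5, then −3.73 and −3.77 at E10.5. *Nkx6-1*, *Nkx6-2* and *Phox2a* had E10.5 genotype log2 ratios of −0.23, −0.21 and −0.21. The median E10.5 genotype ratio of the 9 motor neuron genes compared was −0.21. Between the labelled *Dyrk2*-/- arrays 6 of the 10 were higher at E10.5, or 5 with dim probes at their bound.

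Of 14 further spinal interneuron genes, 12 could be compared between genotypes at E10.5, and their median log2 ratio was −0.35. *Evx1* was 1.77-fold lower and *Lbx1* 1.59-fold lower on the labelled *Dyrk2*-/- array, and none was higher by 1.5-fold. *Evx1*, of V0 interneurons and, earlier, the primitive streak, gave 3.42 and 2.79 at E8.5, then −0.45 and −1.27 at E10.5. *Lbx1*, of dorsal interneurons, gave −3.68 and −3.02 at E8.5, then −0.01 and −0.68 at E10.5. At E8.5, 2 of 8 were higher and 2 lower, *Pou4f1*, a sensory neuron factor, being the farthest at 2.64-fold lower. With stage in WT, 6 of 11 were higher and 3 lower, and between the labelled *Dyrk2*-/- arrays 6 of 12 were higher, or 5 with dim probes at their bound, and 3 lower.

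The pan-neural and neuronal markers moved with the same stage. In WT 8 of 10 were at least 1.5-fold higher at E10.5 and none lower, and their median log2 difference was 2.76, with 2.35 between the labelled *Dyrk2*-/- arrays. *Elavl3*, a neuronal RNA-binding protein, gave −2.51 and −2.53 at E8.5, then 2.93 and 2.43 at E10.5. At E10.5 *Map2*, *Stmn2* and *Dcx* were lower on the labelled *Dyrk2*-/- array, by 1.59-fold, 1.53-fold and 1.51-fold, and the median of the 10 was −0.54. At E8.5 none of 8 passed 1.5-fold and the median was −0.19. The summed level of the 10 markers was 33.4 and 29.6 at E8.5, then 105 and 76.4 at E10.5, with the brightest probe on average that of *Stmn2*, and *Dcx* and *Neurod1* were not well above background at E8.5. Their part in the stage and E10.5 genotype values of the LIM homeobox genes was not tested.

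Outside the nervous system, 12 limb bud genes and 10 second heart field genes were read because *Isl1*, *Lhx2*, *Lhx9* or *Lmx1b* act in those tissues. None of the 11 limb bud genes compared, nor of the 10 second heart field genes, differed by 1.5-fold between genotypes at either stage. The limb bud medians were 0.14 and 0.02, and the heart field medians were −0.16 and 0.02. With stage, 8 of the 10 heart field genes were lower at E10.5 in WT and 7 between the labelled *Dyrk2*-/- arrays, opposite to *Isl1*. *Nkx2-5*, a cardiac transcription factor, gave 1.73 and 1.32 at E8.5, then −0.55 and −0.60 at E10.5. Of the limb bud genes, *Wnt7a*, a dorsal ectoderm signal upstream of *Lmx1b*, was 2.59-fold higher at E10.5 in WT, and *Fgf8* and *Fgf10* were 3.62-fold and 1.88-fold lower. Between the labelled *Dyrk2*-/- arrays *Wnt7a* was higher and *Fgf8* and *Grem1* lower by 1.5-fold or more.

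Among 12 midbrain and roof plate genes, 3 of 11 were lower at E10.5 on the labelled *Dyrk2*-/- array and none higher. They were *Gdf7*, a roof plate signal, at 1.94-fold, *Th*, the rate-limiting enzyme of dopamine synthesis, at 1.61-fold, and *Pitx3* at 1.59-fold. *Th* gave −2.23 and −1.84 at E8.5, then 0.91 and 0.23 at E10.5. At E8.5, *Foxa2*, a floor plate and endoderm factor, was 2.08-fold lower and was the 1 gene of 9 past 1.5-fold. With stage, 5 of 11 were higher and 3 lower in WT, and 5 and 2 between the labelled *Dyrk2*-/- arrays, or 3 and 2 with dim probes at their bound. *Lmx1a* and *Lmx1b* were not lower on the labelled *Dyrk2*-/- array at E10.5 at their main probes, apart from *Lmx1b* without scaling.

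Of 10 forebrain and eye genes, 1 was higher at E10.5 on the labelled *Dyrk2*-/- array and none lower. It was *Hesx1*, a repressor of the anterior neural plate and pituitary, which gave 0.18 and −0.31 at E8.5, then −3.40 and −2.18 at E10.5. At E8.5, *Six6* was higher by 1.5-fold or more, and *Vax1* lower by that much as measured but not at its bound, each being well above background on 1 array of the pair only. *Emx2*, a cortical factor, was 3.31-fold higher at E10.5 in WT and *Rax*, of the eye field, 2.23-fold lower, and the list held 3 higher and 3 lower in WT. Between the labelled *Dyrk2*-/- arrays 4 were higher, or 3 with dim probes at their bound, and 3 lower. Of 5 pituitary genes downstream of or beside *Lhx3* and *Lhx4*, *Pou1f1* was among those near background on all arrays. *Pitx1* was 1.66-fold higher on the labelled *Dyrk2*-/- array at E8.5.

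Of 7 intermediate mesoderm and kidney genes, read beside *Lhx1*, none differed by 1.5-fold between genotypes at E8.5. At E10.5 the median of the 7 was −0.22. With stage, *Pax8*, *Osr1* and *Ret* were among those lower at E10.5 and *Wt1* higher in WT. *Pax8*, an early kidney factor, gave −1.22 and −0.75 at E8.5, then −3.19 and −3.29 at E10.5. Between the labelled *Dyrk2*-/- arrays 5 were lower and *Wt1* again higher.

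Markers of tissues around the embryo were also read. Of 8 yolk sac endoderm markers, 6 were lower on the labelled *Dyrk2*-/- array at E8.5 and none of 7 passed 1.5-fold at E10.5, while 7 of 8 were lower at E10.5 in WT. Their summed level was 51.0 and 33.1 at E8.5, then 20.8 and 17.2 at E10.5, and *Afp* had the brightest probe on average. *Apoa4* was not well above background on either E10.5 array, nor *Amn* on the one labelled *Dyrk2*-/-. Of 6 decidua and trophoblast markers, *Tpbpa* never rose well above background, and neither *Prl3d1* nor *Prl8a2* did so on the E10.5 arrays. At E8.5, *Prl3d1* and *Prl8a2* were higher on the labelled *Dyrk2*-/- array and *Gcm1* and *Dcn* lower, of 5 compared, and none of 3 passed 1.5-fold at E10.5. Their summed level was 15.6 and 10.4 at E8.5, then 18.6 and 22.8 at E10.5, and *Gcm1* had the brightest probe on average. The part of these tissues in the LIM homeobox values was not tested.

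Likeness of pattern was measured as the distance between 4 array values centred on their mean. The mean centred profile of the 8 members well above background on all arrays was −0.58 and −0.64 at E8.5, then 0.73 and 0.48 at E10.5. Among 18798 other genes well above background on all arrays, the 5 nearest included *D430041D05Rik*, *Fgd4*, *Shd* and *Kif5c*, the last at a distance of 0.0533. *Shd*, an adaptor protein, gave 0.51 and 0.47 at E8.5, then 1.86 and 1.62 at E10.5. *Kif5c*, a neuronal kinesin, gave 2.02 and 1.91 at E8.5, then 3.35 and 3.07 at E10.5.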

How the data were processed

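Total RNA was amplified, labelled with Cy3 and hybridized to SurePrint G3 mouse 8 × 60K arrays by the authors. The deposited scanner files hold background-subtracted intensity per spot and quality flags (1 or 0). The submitters' notes name Feature Extraction 9.5.1.1, and the file headers 10.7.1.1. The deposited value table is on a linear intensity scale whose columns shared 1 distribution, with a median absolute log2 difference of 0.00998 from quantile-normalized scanner values. Its centring is not stated.

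Spots flagged as outliers were left out, spots of a probe were averaged, and log2 intensity was set relative to the 75th percentile of each array (R 4.3.3). A probe was well above background if at least 50% of its spots were flagged so. Array gene names were kept unless the accession matched RefSeq (32994 of 56605 probes, 1535 renamed). A gene stood by its probe with the highest mean and was compared where that probe was well above background on 1 array of the pair. Counts at 1.5-fold took dim values as measured unless a bound is named. After a test on simulated data, limma 3.58.1 was fitted with an intensity trend to the 32289 probes that 2 or more arrays measured well above background, and p-values were adjusted by Benjamini-Hochberg. Named genes were all members at every probe, the cofactor, *Lhx6*, *Lhx8* and motor neuron lists, *Dyrk2*, the 5 nearest profiles, and up to 4 genes a list with the largest ratios, and some other genes were named after their values were seen where a count was small. Some listed genes are counted in their lists but not reported here by name. The members and lists were chosen with earlier results of these data known.

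Alternatives were quantile, normexp (offset 50), spike-in and no scaling, the deposited table, other filters, a 2-fold threshold, the mean over a gene's probes, and no limma trend.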

Additional observations from a re-analysis of the deposited data

Results flagged for a closer look

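With 1 array a group, a gene was singled out where 2 groups had ratios of opposite sign, each larger than the spot-to-spot spread of its pair of arrays. Of 186 pairs of ratios of 98 genes, 21 pairs in 20 genes met this, and no such difference was tested. Among the 10 LIM homeobox genes it was *Lhx3*, whose log2 ratio of labelled *Dyrk2*-/- over WT was 0.28 at the earlier and −0.27 at the later stage. The first of these became −0.27 with spike-in scaling and 0.02 without scaling, and the second *Lhx3* probe gave 0.59 and 0.03, so the opposite signs rest on the scaling and on 1 probe. Of the 21 pairs, 13 kept opposite signs with spike-in scaling and 19 without scaling. Those lost with spike-in scaling were of *Lhx3*, *Ssbp4*, *Nkx6-2*, *Slc18a3*, *Th*, *Pax2*, *Grem1* and *Tbx1*, and the last 2 were also lost without scaling.

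Among cofactor and motor neuron genes the E8.5 and E10.5 genotype ratios were 0.45 and −0.17 for *Ssbp4*, 0.86 and −0.27 for *Neurog2*, and 0.48 and −0.21 for *Nkx6-2*. They were 0.32 and −0.64 for *Slc18a3*. With the main scaling all 4 were higher on the labelled *Dyrk2*-/- array at E8.5 and lower at E10.5. The same held for *Lbx1* at 0.66 and −0.67, *Th* at 0.38 and −0.68, *Pax2* at 0.48 and −0.22, and *Nes* at 0.56 and −0.31. It held also for *Grem1* at 0.17 and −0.27 and *Tbx1* at 0.17 and −0.31.

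The reverse, lower at E8.5 and higher at E10.5, was seen for *Pou4f1* at −1.40 and 0.28, *Hesx1* at −0.49 and 1.22, and *Gata6* at −0.36 and 0.35. *Gata4* gave −0.21 and 0.17, and *Fgf10* −0.18 and 0.18. The tissue markers *Cubn*, *Gcm1* and *Dcn* gave −0.79 and 0.20, −0.67 and 0.25, and −0.65 and 0.55. Between stages, *Pou4f1* differed by −0.87 in WT and by 0.80 between the labelled *Dyrk2*-/- arrays. *Uty*, Y-linked, differed by 0.17 in WT and, as a bound, by −2.45 between the labelled *Dyrk2*-/- arrays.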

How the results depend on the processing

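Spike-in scaling shifted the median ratio of all genes to −0.57 for genotype at E8.5, 0.16 at E10.5, −0.15 for stage in WT and 0.59 for stage between the labelled *Dyrk2*-/- arrays. The members moved with it, to medians of −0.56 and −0.10 for genotype at the earlier and later stage and 1.97 for stage between the labelled *Dyrk2*-/- arrays. Under it 2 members passed 1.5-fold at E8.5, *Lhx5* turned to 0.0292 for stage between the labelled *Dyrk2*-/- arrays, and limma called 8 member probes for stage. Without scaling the members' medians were −0.27 and −0.39 for genotype and 1.52 and 1.64 for stage. Then 2 members passed 1.5-fold at each stage, and limma called 4 member probes for genotype. Over all genes at E8.5, 1071 higher and 1359 lower became 291 and 9916 with spike-in scaling and 512 and 3206 without scaling. At E10.5, 748 and 901 became 1251 and 553, and 568 and 1398. For stage in WT, 4099 higher and 3820 lower became 5256 and 2598 without scaling. Between the labelled *Dyrk2*-/- arrays, 3755 and 2982 became 10720 and 985 with spike-in scaling, and 6066 and 1560 without. The limma stage calls, 5062 higher and 6335 lower, became 2095 and 538, and 8758 and 3010. The cause was not tested.

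Without a filter, 1 member passed 1.5-fold for genotype at E8.5, beside 18.4% of all genes, and limma called 2 member probes for genotype. That member was *Lhx4*, not well above background on either E8.5 array. At 2-fold, 0 members passed for genotype at E10.5 and 5 for stage in WT, beside 2.88% and 19.5% of all genes. The mean over a gene's probes gave 2 members past 1.5-fold for genotype at E10.5, beside 8.29% of all genes, and a stage median of 1.495 in WT. Requiring signal on both arrays, which drops *Lhx4* and *Lhx9*, gave stage medians of 0.85 and 0.96, and normexp gave 1.02 between the labelled *Dyrk2*-/- arrays. Of 84 counts and medians recomputed, 63 stayed within 1.5 times the count or within the spot spread. Of 456 values of single members, 349 stayed within that spread or kept their limma call, and 1, that of *Lhx5* above, was called and changed sign. Genotype calls over all probes ranged from 0 without the trend to 729 without scaling. Signal near background limits *Lhx4*, *Lhx9* and 2 *Lmx1b* probes.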
